A study of Mus musculus with 5 samples.

Results

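The β chain of the αβ T cell receptor is assembled in each developing T cell by joining 1 variable (TRBV), 1 diversity (TRBD) and 1 joining (TRBJ) gene segment of the Trb locus, and the joint forms the third complementarity-determining region, CDR3. The members described here were the 34 TRBV and TRBJ labels found in productive TRB contigs, 22 TRBV and 12 TRBJ, of 167 V and J labels in all productive α and β contigs of the series. Every cell entered with 1 contig, the one with the most unique molecular identifiers (UMIs), which gave 9115 cells of the 9473 with any contig. Of these cells, 8472 were also in the gene matrix of the same droplets.

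The cells were CD44-high CD4+ and CD8+ T cells sorted from mediastinal lymph nodes (MedLN), which drain the heart, of C57BL/6 mice aged 2, 6, 12 and 18 months. They were pooled into 1 library after staining with 8 hashtag antibodies. The age behind each hashtag was not used here, so hashtags were given by name and never read as ages, and the sources used here do not say whether a hashtag held 1 animal or several. The series also held 2 heart libraries of non-cardiomyocytes from C57BL/6 mice, 1 of 18 months and 1 of 2 months. CD4 and CD8 are the co-receptors that bind MHC class II and MHC class I molecules.

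A TRBV segment encodes the first and second complementarity-determining loops, which largely contact the MHC molecule, and the start of CDR3. A TRBJ segment encodes the end of CDR3. The TRBJ1 and TRBJ2 clusters each follow their own diversity segment, and TRBV31 lies downstream of both clusters in the opposite orientation. In GENCODE M21, on GRCm38, the annotated Trb segments ran from chr6:40891229-40891885, Trbv1, to chr6:41557691-41558452, Trbv31 on the minus strand. Of the 35 annotated Trbv genes, 22 were TR_V_gene and 13 were pseudogenes.

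The lymph node matrix held 46610566 UMIs in 13016 barcodes. T cell markers (Cd3d, Cd3e, Cd3g, Trac, Trbc1 and Trbc2) were seen in 99.5% of the receptor cells, against 70.4% of the 4224 barcodes with no contig. Myeloid marker UMIs summed to 0.307 per 1000 UMIs in receptor cells, against 2.42 per 1000 in barcodes with no contig. A second productive TRB contig was present in 1076 cells (11.8%). Those cells lacked a single hashtag in 29.7% of cases, against 8.83% of cells with 1 TRB contig, and their median depth was 2685 UMIs, against 3317 UMIs. A single hashtag was assigned to 7508 cells, from 601 to 1545 per hashtag.

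Most labels matched the transcripts of the same cells, with a pair of exceptions among the TRBV labels. Among 7685 cells with at least 2 UMIs of a leading Trbv gene in the gene matrix, the leading gene bore the contig's name in 7115 (92.6%), counting the composite label TRBV12-2+TRBV13-2 as Trbv13-2. The first exception was TRBV10. GENCODE annotates Trbv10 as a pseudogene, and the whole matrix held 2 Trbv10 UMIs against 2000 Trbv4 UMIs. The 375 cells labelled TRBV10 in the matrix carried 1630 Trbv4 UMIs and 0 Trbv10 UMIs, and 261 of the 264 cells led by Trbv4 had this label. None of the 22 TRBV labels was TRBV4.

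The germline ends tell these names apart, so both pairs are shown from GENCODE M21, with the codon at the start of CDR3 in capitals. CDR3 normally opens with the cysteine codon TGT or TGC.
Trbv4, chr6:41059394-41059886, plus strand: TGTgccagcagctaaga
Trbv10, chr6:41091940-41092228, plus strand: TGGgccagcagtgaacaaa
Trbv13-2, chr6:41121396-41121832, plus strand: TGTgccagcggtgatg
Trbv12-2, chr6:41118851-41119364, plus strand: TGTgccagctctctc
Of 245 distinct TRB sequences labelled TRBV10, 198 (80.8%) opened with the first 12 bases of the Trbv4 end and 0 with those of the Trbv10 end. The label is kept as TRBV10 below, as deposited.

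The composite label matched Trbv13-2 in both readouts. Its 797 cells in the matrix drew 88.3% of their Trbv UMIs from Trbv13-2 and 2.69% from Trbv12-2. Of its 568 distinct sequences, 479 (84.3%) opened with the first 12 bases of Trbv13-2 and 0 with those of Trbv12-2. The plain label TRBV13-2 held 88 cells, and both labels together held 10.3% of cells (95% Clopper-Pearson interval 9.68 to 10.9). Across all labels the leading gene supplied 68.1% to 93.1% of Trbv UMIs, lowest for TRBV5, whose cells had 2.93 Trbv UMIs each. Trbv24, an annotated pseudogene, had 209 UMIs in the matrix and Trbv21 had 35, and neither had a productive contig among these cells.

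**Figure D1:**
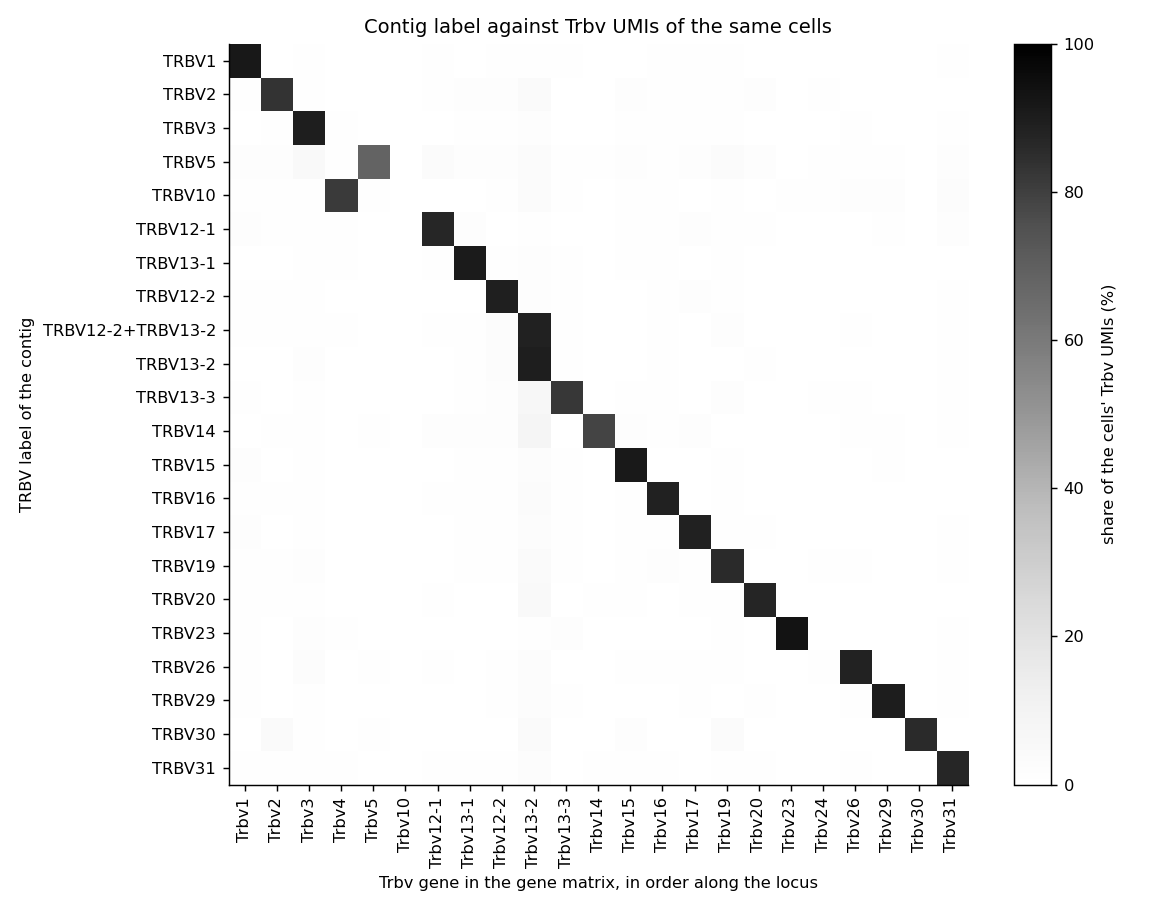
Share of Trbv UMIs (%, grey scale) from each Trbv gene of the gene matrix, columns in order along the locus, in the cells of each TRBV contig label, rows. Dark cells follow the diagonal, with 81.6% of the UMIs of TRBV10 cells under Trbv4 and 88.3% of those of TRBV12-2+TRBV13-2 cells under Trbv13-2.

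Use was spread over many V segments. By clonotype, as the deposited clonotype names define it (7048 clonotypes), the composite TRBV13-2 label led with 9.66% (interval 8.98 to 10.4). TRBV3 followed with 8.33%, TRBV19 with 7.34%, TRBV13-1 with 7.15% and TRBV5 with 6.92%, and these 5 labels together made up 39.4% of clonotypes. Their intervals overlapped between neighbours in this order. TRBV16 (6.41%), TRBV1 (6.16%) and TRBV13-3 (5.22%) came next. TRBV12-1 (4.57%), TRBV10 (4.55%), TRBV2 (4.26%), TRBV31 (4.20%) and TRBV12-2 (3.94%) lay close together.

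The lower end of V use held TRBV29 at 3.73% of clonotypes, TRBV20 at 3.58%, TRBV15 at 3.42%, TRBV17 at 2.98%, TRBV26 at 2.95% and TRBV14 at 2.60%. Below 1% were TRBV13-2 under its plain label, TRBV23 at 0.865% (0.663 to 1.11) and TRBV30 at 0.184% (0.0982 to 0.315). All intervals cover counting error only.

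Among joining segments TRBJ2-7, the last of its cluster, stood first with 19.5% of clonotypes (18.6 to 20.5). TRBJ2-5 (11.4%), TRBJ2-1 (10.9%) and TRBJ1-1 (10.9%) had overlapping intervals. TRBJ2-3 held 8.63%, TRBJ2-4 7.70%, TRBJ1-4 7.01%, TRBJ1-3 6.10%, TRBJ1-2 5.97% and TRBJ2-2 5.35%. TRBJ1-6 (3.52%) and TRBJ1-5 (2.91%) were lowest. The TRBJ2 cluster as a whole made up 63.6% of clonotypes (62.4 to 64.7) and 63.1% of cells. The constant gene TRBC1 was named for 3300 of the 3364 TRBJ1 cells, while 0 of the 5751 TRBJ2 cells had a constant gene name.

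Counting cells in place of clonotypes moved some labels up and others down. TRBV23 held 1.77% of cells against 0.865% of clonotypes, a difference of 0.90 percentage points and the largest among the TRBV labels. Without the largest clonotype the largest difference was 0.54 points, in TRBV15 (3.96% of cells and 3.42% of clonotypes). TRBV5 (6.42% of cells, 6.92% of clonotypes) and TRBV29 (3.36% and 3.73%) had smaller shares by cell. In TRBV23 72.5% of the cells sat in clonotypes of at least 2 cells, against 23.3% in TRBV29 and 25.8% in TRBV5. Over all clonotypes, 6063 of 7048 held 1 cell.

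**Figure D2:**
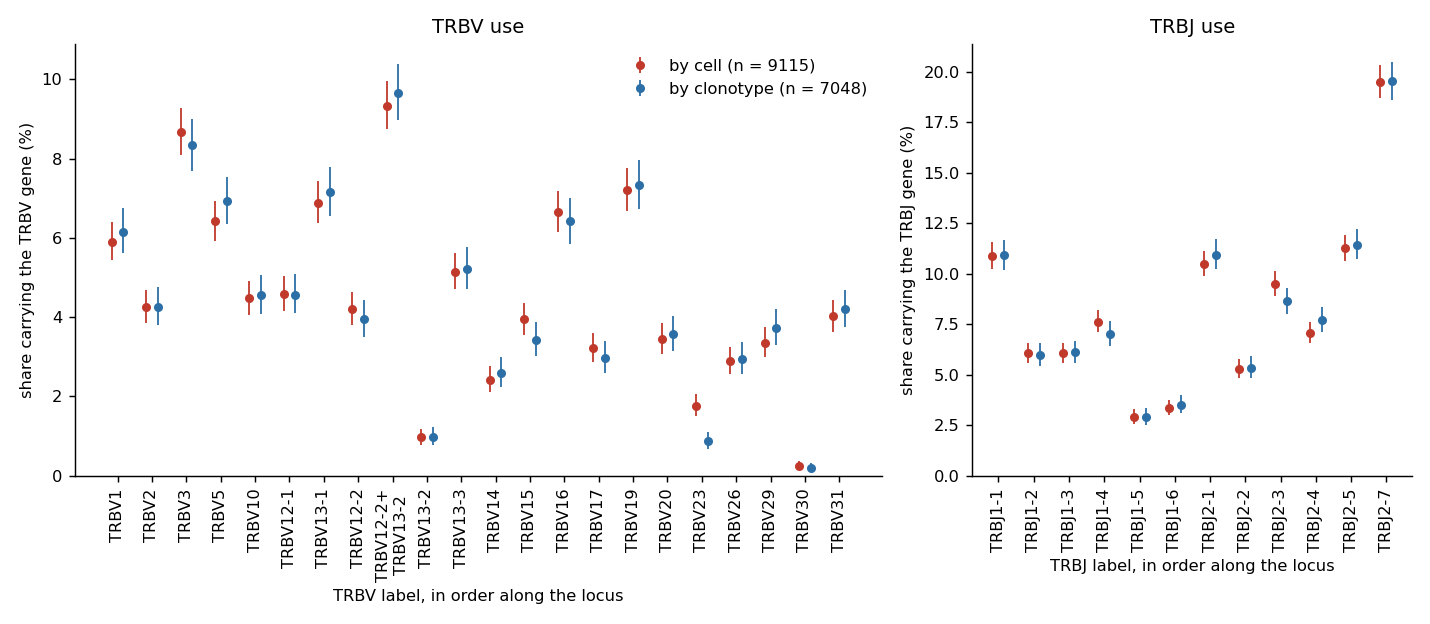
Share of cells and of clonotypes (%) carrying each TRBV label, left, and TRBJ label, right, in order along the locus, with bars for 95% Clopper-Pearson intervals. The intervals by cell and by clonotype separate for TRBV23, at 1.77% of cells and 0.865% of clonotypes.

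The deposited clonotype names divide cells that share a β chain. The 7048 clonotypes held 5676 distinct TRB sequences, each 1 combination of TRBV, TRBJ and CDR3 bases, and 864 of these stood in 2 or more clonotypes. Of 5206 sequences with a hashtag, 266 were in 2 or more hashtags. The sequences found in the most clonotypes are shown first, with bases that match neither the germline end of the V segment nor the start of the J segment in capitals. For TRBV10 the V end used was that of Trbv4, and for the composite label that of Trbv13-2.
TRBV10 with TRBJ1-1: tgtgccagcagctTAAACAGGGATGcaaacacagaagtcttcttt
TRBV17 with TRBJ2-1: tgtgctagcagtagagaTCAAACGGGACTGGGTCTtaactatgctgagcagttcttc
The TRBV10 sequence was in 12 clonotypes and 13 cells, 7 of its 8 hashtagged cells in Hashtag7. The TRBV17 sequence was in 11 clonotypes and 16 cells, of which 4 had a hashtag. Of the 9115 cells, 7070 had a productive α contig.

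The 10 clonotypes with the most cells include the largest of TRBV23, TRBV15 and TRBV3, and their junctions are shown with the same capitals, in falling order of cells.
TRBV23 with TRBJ2-3: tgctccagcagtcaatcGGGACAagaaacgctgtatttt
TRBV15 with TRBJ2-7: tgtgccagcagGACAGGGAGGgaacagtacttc
TRBV12-2 with TRBJ1-4: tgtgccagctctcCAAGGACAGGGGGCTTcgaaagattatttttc
TRBV3 with TRBJ2-5: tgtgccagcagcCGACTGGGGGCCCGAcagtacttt
TRBV16 with TRBJ2-7: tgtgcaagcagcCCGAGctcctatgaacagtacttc
TRBV12-2+TRBV13-2 with TRBJ2-3: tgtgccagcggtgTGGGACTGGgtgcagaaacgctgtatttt
TRBV12-2 with TRBJ1-1: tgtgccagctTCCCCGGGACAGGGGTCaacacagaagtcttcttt
TRBV19 with TRBJ2-7: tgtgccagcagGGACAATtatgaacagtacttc
TRBV2 with TRBJ2-1: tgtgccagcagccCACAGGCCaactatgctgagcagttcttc
The TRBV3 sequence belonged to 2 of the 10 clonotypes, of 23 and 16 cells.

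The TRBV23 clonotype held 56 cells, 34.8% of all TRBV23 cells, and all 49 of its hashtagged cells were in Hashtag7. It carried 72 Cd4 UMIs and 12 Cd8a plus Cd8b1 UMIs. Its TRB sequence was in 69 cells of 4 clonotypes. The TRBV15 clonotype held 34 cells, 31 of them in Hashtag7, and carried 1 Cd4 UMI and 269 Cd8a plus Cd8b1 UMIs. Its TRB sequence was in 58 cells of 9 clonotypes. The TRBV12-2 clonotypes, of 26 and 16 cells, carried 144 and 140 Cd8a plus Cd8b1 UMIs and 1 and 0 Cd4 UMIs. Hashtag7 held most of the hashtagged cells in 8 of the 10 clonotypes and Hashtag8 in the other two.

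CD4 and CD8 clonotypes differed in the shares of some V segments. A clonotype was called CD4 where its cells in a hashtag had more Cd4 than Cd8a plus Cd8b1 UMIs, CD8 in the reverse case, and was otherwise uncalled. A clonotype seen in several hashtags counted in each. This gave 1725 CD4 clonotypes, 123 to 331 per hashtag, and 2818 CD8 clonotypes, 264 to 495 per hashtag. Shares were compared within hashtags, over 8 hashtags, with edgeR's quasi-likelihood test and Benjamini-Hochberg adjustment over the 33 labels with at least 10 clonotypes, which left out TRBV30. Of 21 TRBV labels, 5 were lower in CD4 clonotypes (23.8%) and 5 were higher (23.8%). Since shares sum to 100%, a fall in some labels raises the others.

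The labels lower in CD4 clonotypes were TRBV12-2, TRBV12-1, TRBV14, TRBV17 and TRBV29. TRBV12-2 made up 0%, 1.36% and 2.44% of CD4 clonotypes (lowest, median and highest hashtag), against 3.79%, 6.24% and 7.46% of CD8 clonotypes. The groups did not overlap, and every hashtag had the lower share in CD4. The log2 ratio of CD4 over CD8 was -2.17 ± 0.28 (edgeR adjusted p = 2.2e-11), a share 4.50-fold lower in CD4. Here and below, the value after ± is the size of the log2 ratio over the square root of edgeR's F statistic. That value is no standard error taken from the fit, and it can be smaller than counting error alone. TRBV12-1, at chr6:41113550-41114067, made up 1.81%, 2.33% and 4.07% of CD4 clonotypes, against 3.64%, 7.32% and 10.4% of CD8 clonotypes. Its ranges overlapped between hashtags, but within each of the 8 hashtags the CD4 share was lower (log2 ratio -1.53 ± 0.23, edgeR adjusted p = 8.4e-09). Both segments have the same germline end in CDR3, as printed above for Trbv12-2.

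TRBV14 made up 0.452%, 1.12% and 3.37% of CD4 clonotypes, against 2.00%, 3.62% and 6.71% of CD8 clonotypes (log2 ratio -1.36 ± 0.32, edgeR adjusted p = 2.7e-04). It was lower in CD4 in 7 of 8 hashtags. TRBV17 was lower in CD4 in 8 of 8, with 0.535%, 1.17% and 3.17% of CD4 clonotypes, against 2.01%, 3.56% and 7.58% of CD8 clonotypes (log2 ratio -1.30 ± 0.31, edgeR adjusted p = 2.7e-04). TRBV29 made up 1.16%, 2.34% and 4.28% of CD4 clonotypes, against 3.03%, 5.28% and 6.67% of CD8 clonotypes (log2 ratio -0.87 ± 0.25, edgeR adjusted p = 0.0023), and was lower in CD4 in 7 of 8 hashtags.

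The labels higher in CD4 clonotypes were TRBV2, TRBV31, TRBV20, TRBV5 and the composite TRBV13-2 label. TRBV2, at chr6:41047340-41047995, made up 4.88%, 5.78% and 10.1% of CD4 clonotypes, against 1%, 2.70% and 3.84% of CD8 clonotypes. The groups did not overlap (log2 ratio 1.26 ± 0.22, edgeR adjusted p = 9.9e-07). TRBV31, the inverted segment, made up 2.72%, 6.03% and 8.78% of CD4 clonotypes, against 1.34%, 3.03% and 4.33% of CD8 clonotypes (log2 ratio 1.001 ± 0.22, edgeR adjusted p = 1.2e-04). TRBV20, at chr6:41188273-41188977, made up 2.62%, 5.25% and 6.40% of CD4 clonotypes, against 1.08%, 2.24% and 4.17% of CD8 clonotypes (log2 ratio 0.997 ± 0.26, edgeR adjusted p = 6.2e-04). The ranges of TRBV31 and TRBV20 overlapped, while both were higher in CD4 in 8 of 8 hashtags, as was TRBV2.

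TRBV5 and the composite TRBV13-2 label had the smallest ratios among the TRBV labels that passed. TRBV5 made up 5.35%, 7.59% and 12.3% of CD4 clonotypes, against 3.73%, 5.69% and 6.87% of CD8 clonotypes (log2 ratio 0.67 ± 0.18, edgeR adjusted p = 0.0013). It was higher in CD4 in 5 of 8 hashtags, and the exact two-sided sign-flip test over 8 hashtags gave an adjusted p of 0.14. The composite label made up 8.22%, 11.1% and 13.4% of CD4 clonotypes, against 5.86%, 8.55% and 9.33% of CD8 clonotypes (log2 ratio 0.43 ± 0.16, edgeR adjusted p = 0.025). It was higher in 8 of 8 hashtags, but the edgeR call was lost without Hashtag4, Hashtag5 or Hashtag7 (adjusted p 0.092, 0.056 and 0.076), and DESeq2 gave an adjusted p of 0.27. The plain TRBV13-2 label, with 40 clonotypes, did not pass and was lower in CD4 in 5 of 8 hashtags. Its log2 ratio was -0.38 ± 0.69 (edgeR adjusted p = 0.80).

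**Figure D3:**
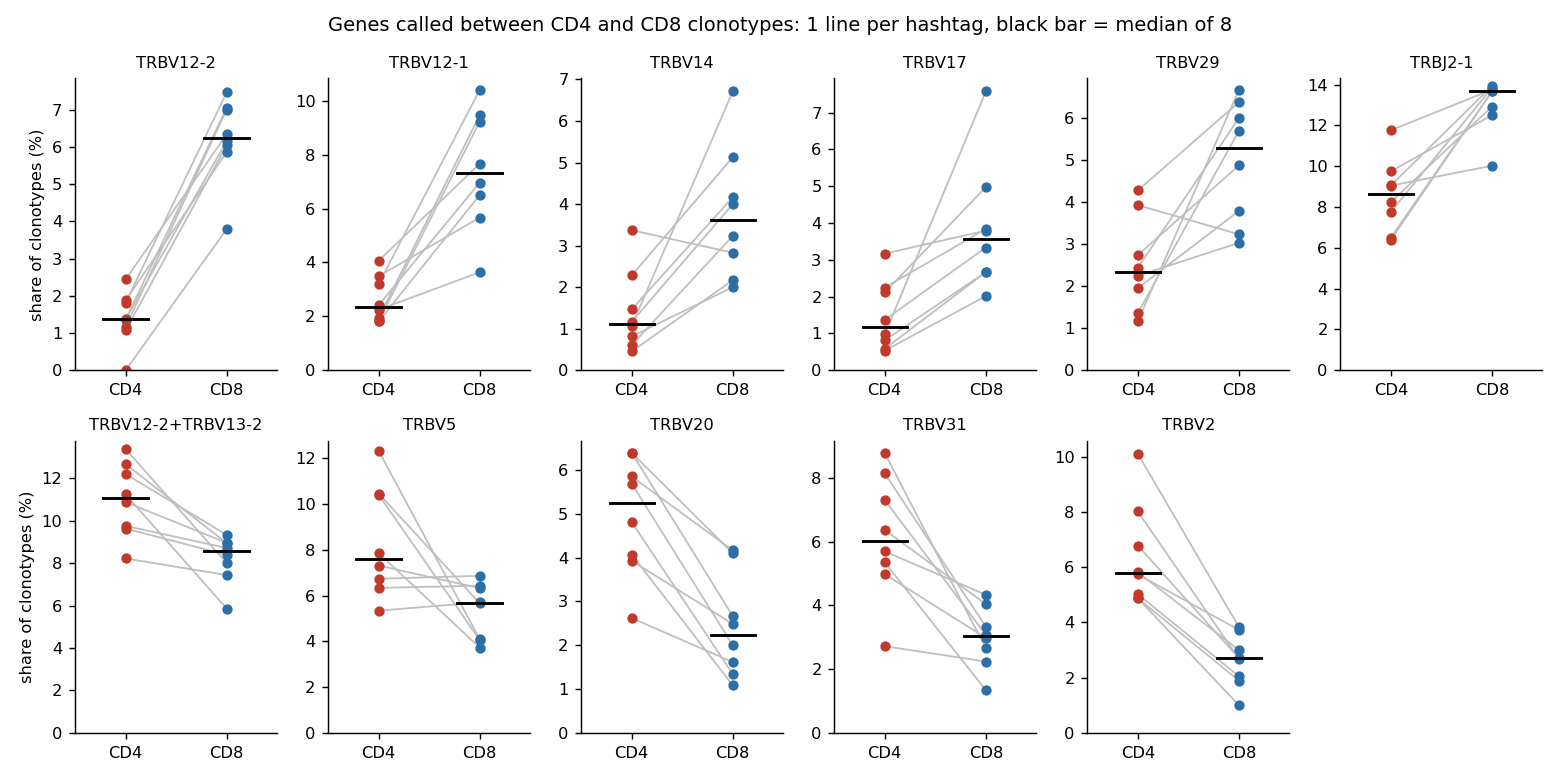
Share of CD4 clonotypes, left of each panel, and of CD8 clonotypes, right, (%) carrying each of the 11 labels that passed the edgeR test, with a grey line per hashtag and a black bar for the median of 8 hashtags. TRBV12-2 (median 1.36% in CD4, 6.24% in CD8) and TRBV2 (5.78% in CD4, 2.70% in CD8) show no overlap.

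The other 11 TRBV labels tested did not pass. TRBV23 had the highest ratio among all labels, 1.42 ± 0.65 on the log2 scale, with an edgeR adjusted p of 0.084 from 41 clonotypes. TRBV3 was higher in CD4 in 8 of 8 hashtags, with 9.34% of CD4 clonotypes in the median hashtag, against 7.93% of CD8 clonotypes. Its edgeR adjusted p was 0.15, and the sign-flip test over 8 hashtags, whose smallest possible p is 0.0078, gave an exact adjusted p of 0.026. Among TRBV labels TRBV1 (log2 ratio -0.02 ± 0.20) and TRBV13-1 (-0.02 ± 0.18) had the ratios nearest to 0.

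Of 12 TRBJ labels, TRBJ2-1 was lower in CD4 clonotypes (8.33% of those tested) and 0 were higher (0%). TRBJ2-1, the first segment of its cluster at chr6:41542754-41542803, made up 6.40%, 8.64% and 11.8% of CD4 clonotypes, against 10.03%, 13.7% and 13.9% of CD8 clonotypes. It was lower in CD4 in 8 of 8 hashtags (log2 ratio -0.59 ± 0.14, edgeR adjusted p = 4.3e-04). TRBJ1-4 was higher in CD4 in 8 of 8 hashtags, with a log2 ratio of 0.40 ± 0.20 and an edgeR adjusted p of 0.13. For TRBJ2-7 the log2 ratio was -0.07 ± 0.07 (edgeR adjusted p = 0.73). At an unadjusted p under 0.05 the edgeR test gave no TRBJ label higher in CD4, DESeq2 gave none after adjustment, and the sign-flip test gave 1, TRBJ1-4.

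The TRBJ2 cluster as a whole made up 61.5% of CD4 clonotypes and 66.1% of CD8 clonotypes over all hashtags. The mean difference within hashtags was -4.80 percentage points, with 6 of 8 hashtags below 0 (exact two-sided sign-flip test, p = 0.094). The difference ran from -17.1 points in Hashtag4 to 4.60 points in Hashtag6, and the mean was -3.04 points without Hashtag4. Without Hashtag6 it was -6.14 points (exact p = 0.047). Mean CDR3 length was 41.5 bases in CD4 clonotypes and 41.7 bases in CD8 clonotypes, a mean difference within hashtags of -0.129 bases (exact p = 0.41, from -0.895 to 0.209 bases).

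Depth and calls moved together with this contrast. Median depth was 3585 UMIs in hashtagged CD4 cells and 4542 UMIs in CD8 cells, and the median cell had 2 Cd4 UMIs in the CD4 group and 7 Cd8a plus Cd8b1 UMIs in the CD8 group. Uncalled cells (2179) had a median of 2136 UMIs and held 74 of the cells with an invariant natural killer T (NKT) cell α chain, against 12 among CD4 and 4 among CD8 cells. Of 494 clonotypes with at least 2 called cells, 42 (8.50%) held cells of both calls. With a strict call, at least 2 UMIs of one co-receptor and 0 of the other, 9 TRBV labels passed, all of them among the 10.

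Uncalled clonotypes had a share nearer to that of CD4 than of CD8 clonotypes in all 11 labels called. These labels were picked for a difference between the calls. Among the other labels some uncalled shares were nearer to CD4, and some, such as those of TRBV1 and TRBV13-3, nearer to CD8. TRBV12-2 made up 1.63% of uncalled clonotypes (interval 1.08 to 2.36), against 1.39% of all CD4 and 6.28% of all CD8 clonotypes. For TRBV12-1 these shares were 2.83% (2.09 to 3.75) in uncalled, 2.49% in CD4 and 7.17% in CD8 clonotypes. TRBV2 made up 5.55% of uncalled clonotypes (4.49 to 6.76), 6.55% of CD4 and 2.73% of CD8 clonotypes, and TRBJ2-1 made up 8.50% of uncalled (7.20 to 9.95), 8.70% of CD4 and 13.0% of CD8 clonotypes.

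Markers of other cell types were counted in the same cells. Of the B cell markers, Cd79a had 622 UMIs in the 1955 CD4 cells and 768 in the 3374 CD8 cells, Cd79b had 423 in CD4 and 691 in CD8 cells, and Ms4a1 had 187 in CD4 and 236 in CD8 cells. UMI totals in this paragraph come from groups of unlike cell number and depth, so they are no rates. The 3 NK cell markers, Ncr1, Klrb1c and Tyrobp, summed to 0.00318 to 0.0671 UMIs per 1000 over the hashtags in CD4 cells and to 0.0209 to 0.0527 in CD8 cells. The myeloid markers Lyz2, Cst3, Csf1r and Itgam ranged from 0.138 to 0.665 per 1000 in CD4 cells and from 0.114 to 0.396 in CD8 cells. Most of these were Cst3, with 1823 UMIs in CD4 cells and 2953 in CD8 cells, and at least 1 myeloid marker UMI was seen in 38.3% of receptor cells, against 37.5% of barcodes with no contig. Of the γδ T cell markers, Trdc had 21 UMIs in CD4 cells and 48 in CD8 cells, Tcrg-C1 had 23 in CD4 and 44 in CD8 cells, and Tcrg-C2 had 7 in CD4 and 247 in CD8 cells. Their part in the differences of V use was not tested.

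V and J segments joined nearly, but not fully, in proportion to their separate use. Of 264 possible pairs, 256 were seen, and 211 had an expected count of at least 10 clonotypes from the product of the V and J shares. The median ratio of observed to expected clonotypes was 1.01. A pair was called where the ratio passed 1.5-fold and its 95% exact Poisson interval left out 1. By this rule 9 pairs (4.27%) were above and 17 (8.06%) below. The intervals treat clonotypes as independent.

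The highest ratio belonged to TRBV20 with TRBJ1-2, with 46 clonotypes against 15.1 expected, a ratio of 3.06 (2.24 to 4.08). Its 46 clonotypes held 28 distinct TRB sequences, still 2.40-fold the expected count (1.59 to 3.47). Its most frequent junctions are shown with non-germline bases in capitals.
TRBV20 with TRBJ1-2, in 5 clonotypes and 8 cells: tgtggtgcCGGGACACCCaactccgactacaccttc
TRBV20 with TRBJ1-2, in 5 clonotypes and 5 cells: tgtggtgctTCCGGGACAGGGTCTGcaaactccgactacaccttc
TRBV20 with TRBJ1-2, in 4 clonotypes and 8 cells: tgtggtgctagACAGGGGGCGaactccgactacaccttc
The same pair was above its expected count in both calls, with 15 CD4 clonotypes against 5.13 expected and 11 CD8 clonotypes against 3.88 expected. Both calls were part of the pooled count by which the pair was ranked, so this split is no separate check.

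TRBV17 with TRBJ2-1 came second, with 52 clonotypes against 23.0 expected, a ratio of 2.26. Among distinct TRB sequences it had 23 against 14.7 expected, a ratio of 1.57 whose interval, 0.992 to 2.35, included 1. Of its 52 clonotypes 11 carried the 57-base sequence printed above. TRBJ1-6 formed the next pairs, with TRBV19 (39 against 18.2 expected, ratio 2.14) and with TRBV1 (32 against 15.3, ratio 2.10), and both were also called by distinct TRB sequence. TRBV13-3 with TRBJ1-4 (ratio 1.67), TRBV26 with TRBJ1-3 (1.65), TRBV14 with TRBJ2-3 (1.58) and TRBV14 with TRBJ2-5 (1.53) were the other called pairs among the 10 highest. TRBV2 with TRBJ1-6 (1.61, interval 0.938 to 2.58) and TRBV17 with TRBJ2-2 (1.602, interval 0.9497 to 2.53) were not called.

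The rarest pairs lay well below their expected counts. TRBV16 with TRBJ1-5 was found in 1 clonotype against 13.1 expected, a ratio of 0.0761 (0.00193 to 0.424). This lone junction is shown with its non-germline bases in capitals.
TRBV16 with TRBJ1-5: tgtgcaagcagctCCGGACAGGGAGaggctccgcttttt
TRBV3 with TRBJ1-6 had 3 clonotypes against 20.7 expected, a ratio of 0.145 (0.0300 to 0.424). Both pairs were below their expected count in 8 of 8 hashtags. With so few clonotypes, a hashtag that held none was below by construction, so this adds little to the pooled ratios. TRBV14 with TRBJ1-2 (2 clonotypes against 10.9, ratio 0.183), TRBV10 with TRBJ1-6 (3 against 11.3, ratio 0.266) and TRBV20 with TRBJ2-3 (7 against 21.7, ratio 0.322) followed. TRBV15 with TRBJ1-2 (0.347), TRBV16 with TRBJ1-6 (0.377), TRBV5 with TRBJ1-2 (0.446), TRBV17 with TRBJ2-4 (0.494) and TRBV12-2 with TRBJ2-3 (0.500) completed the 10 lowest.

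TRBJ1-2, TRBJ1-4, TRBJ1-6, TRBJ2-3 and TRBJ2-5 each had called pairs both above and below. Of the 17 pairs below, 10 held a TRBJ1 segment, and of the 9 above 5 did, among 96 pairs with a TRBJ1 segment in the 211. Counting distinct TRB sequences called 13 of 196 pairs. Of the 26 pairs called by clonotype, 12 kept their call, 4 above and 8 below. In 16 of the 17 pairs below, at least 6 of 8 hashtags were below their own expected count, and in 8 of the 9 pairs above, at least 6 were above it. The pairs were called on pooled clonotypes that include those of the same hashtags, so this count is no separate check of the calls.

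**Figure D4:**
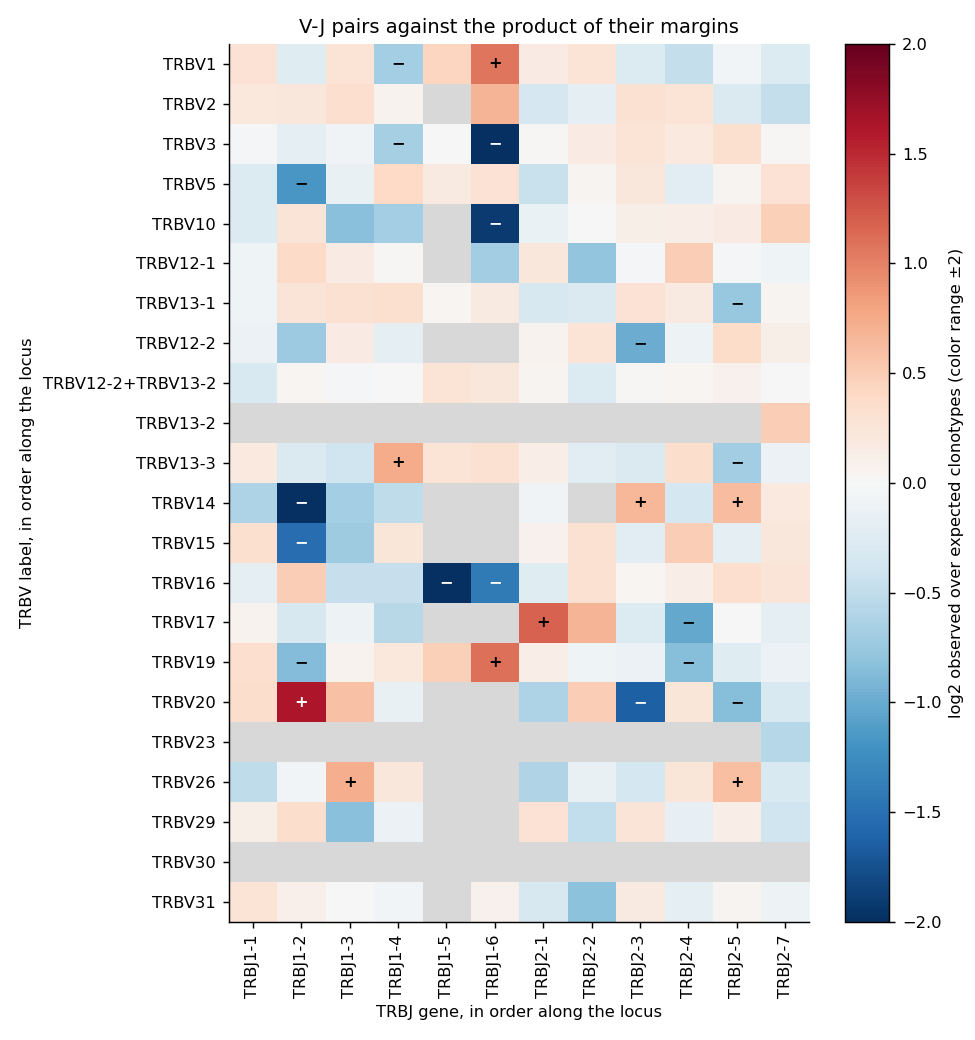
Ratio of observed to expected clonotypes (log2, blue below and red above) for each TRBV label, rows, and TRBJ label, columns, both in order along the locus. Plus and minus signs mark the 9 pairs called above and the 17 called below, and grey pairs had an expected count under 10 clonotypes.

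The junctions were also searched for letters of the diversity segments. TRBD1 precedes the TRBJ1 cluster and TRBD2 lies between the clusters, so that joining by deletion lets TRBD2 reach only TRBJ2. Both germline segments are shown because the letters that tell them apart were searched for in CDR3.
Trbd1, chr6:41533201-41533212, plus strand: gggacagggggc
Trbd2, chr6:41542163-41542176, plus strand: gggactgggggggc
The motifs were the runs of 6 bases found in 1 segment and not in the other. For Trbd1 these were its first 6 runs, opening with GGGACA and closing with AGGGGG, and for Trbd2 its first 7 runs, opening with GGGACT and closing with GGGGGG. They overlap one another and were read on the coding strand in the non-germline part alone.

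Of 2068 distinct sequences with a TRBJ1 segment, 43.2% (41.1 to 45.4) held a Trbd1 motif alone and 3.77% (2.99 to 4.69) a Trbd2 motif alone. Of 3608 with a TRBJ2 segment, 22.3% (20.99 to 23.7) held a Trbd1 motif alone and 44.04% (42.4 to 45.7) a Trbd2 motif alone. Within the TRBJ2 cluster the Trbd1 share ran from 16.1% in TRBJ2-4 to 27.2% in TRBJ2-2. The largest clonotypes show both kinds, with ACAGGG between TRBV15 and TRBJ2-7 and GGGACTGG between the composite TRBV13-2 label and TRBJ2-3. A match is a description of letters, and a sequence without one may have had its diversity segment trimmed.

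CDR3 was most often 42 bases long (30.5% of distinct TRB sequences), then 45 (21.5%) and 39 (21.001%), with a mean of 41.6 bases. The mean went from 38.9 bases in TRBV20 to 43.5 in TRBV5 among V labels, and from 39.7 in TRBJ2-7 to 43.7 in TRBJ2-2 among J labels. On average 13.7 bases matched the germline V end, 18.2 matched the germline J start and 9.82 matched neither. The mean number of bases matching neither was between 8.28 and 8.98 bases in the TRBJ1 segments and between 9.56 and 10.8 in the TRBJ2 segments. TRBV20, whose germline end supplies up to 14 bases of CDR3, kept 11.5 of them, and TRBV2 kept 15.3 of 17.

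Use differed among hashtags more by cell than by clonotype in some labels. TRBV23 made up 0.166% to 5.18% of cells over the hashtags (median 1.09%), highest in Hashtag7, and 0.180% to 1.66% of clonotypes (median 0.954%). TRBJ2-3 made up 7.04% to 15.1% of cells, highest in Hashtag7, and 7.47% to 10.2% of clonotypes. TRBV19 was highest in Hashtag8 both by cell, at 11.7% against at most 7.58% elsewhere, and by clonotype, at 10.6% against at most 7.87%. TRBV16 was lowest in Hashtag7, at 3.37% of cells and 4.28% of clonotypes. TRBV5 had a narrow range, 5.47% to 7.28% of cells and 6.33% to 7.48% of clonotypes. The CD4 part of the called clonotypes ran from 29.1% in Hashtag2 to 45.2% in Hashtag8. Its part in the differences among hashtags was not tested.

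**Figure D5:**
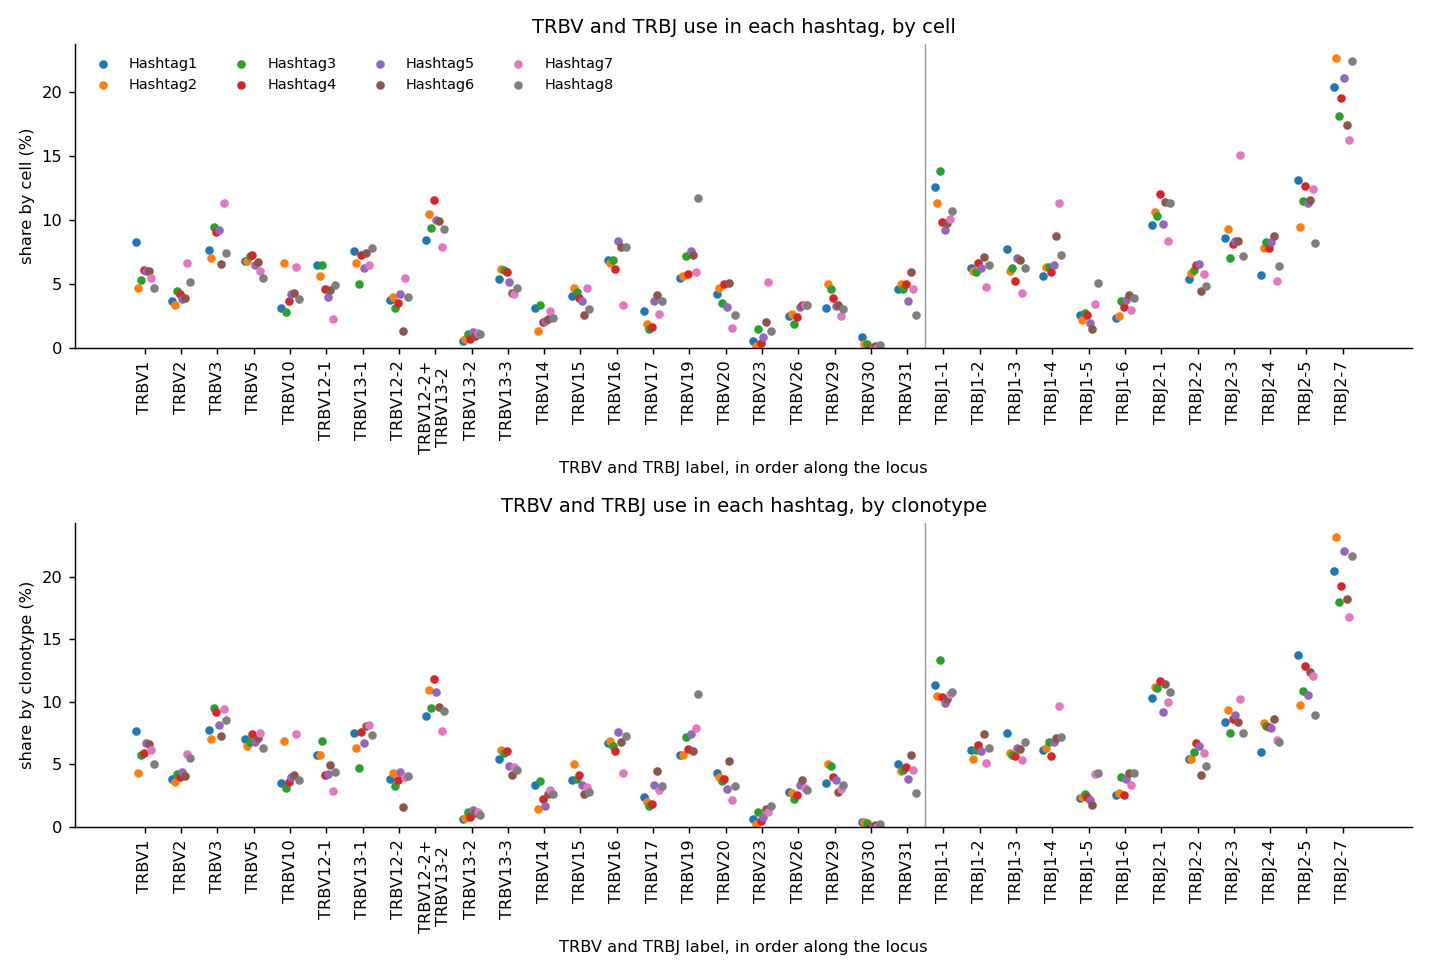
Share of cells, top, and of clonotypes, bottom, (%) carrying each TRBV and TRBJ label in each of the 8 hashtags, one colored point per hashtag. Hashtag7 stands apart by cell at TRBV23 (5.18%) and TRBJ2-3 (15.1%), and Hashtag8 at TRBV19 (11.7% by cell, 10.6% by clonotype).

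Few heart T cells gave a Trbv reading. The heart libraries were made with a 3′ kit, and receptor contigs were not analysed for them here. The heart libraries shared 42 of 8844 barcodes at 18 months and 12235 at 2 months, and the lymph node library shared 0 and 7 with them. Among cells with at least 1 Cd3d, Cd3e or Cd3g UMI, 964 in the 18-month library held 137 Trbv UMIs and 741 in the 2-month library held 67. A Trbv gene with at least 2 UMIs and most of the cell's Trbv UMIs was found in 13 cells at 18 months and 5 cells at 2 months. Of the 10 genes seen, 0 (0%) passed 1.5-fold with an interval leaving out 1. With so few cells, from 1 library per age, this count says nothing about whether V use differed.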

How the data were processed

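Lymph node droplets were processed by the authors with Cell Ranger 3.1.0 on mm10 (GRCm38), per the submitters' processing notes, from a 5′ kit per the labels' protocols. The deposited gene and hashtag matrices hold raw UMI counts, and the deposited contig table holds V, J and CDR3 calls with UMI counts per contig. Members and lists were chosen with earlier results of these data known.

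A hashtag was taken where its UMIs reached 10 and at least 2 times those of the second. Values were given for labels with at least 1% of clonotypes and those past the CD4 against CD8 test, the 10 highest and 10 lowest V-J pairs, and the 10 largest clonotypes. Clonotypes per hashtag and call were fitted with edgeR 4.0.16 (R 4.3.3), hashtag as block and totals as library sizes. The fit was also run on simulated independent clonotypes, which cannot show how TRB sequences repeated among clonotypes affect it. The hashtag block pairs the calls by construction, since the CD4 and CD8 cells compared share a hashtag and the same library. Shares carry 95% Clopper-Pearson intervals. Hashtags may be technical units. The p-values rest on counting error and on the spread of the CD4 against CD8 difference among them. Alternatives included DESeq2 1.42.0, TMM, cells, distinct TRB sequences, stricter calls and leaving out each hashtag. Heart cells under 200 genes or over 15% mitochondrial UMIs were dropped. Hashtag UMIs were read from the lymph node matrix, and 1 B cell marker is not reported here. No doublet caller was run, but cells with 2 TRB contigs were left out in an alternative. Python 3.11.15, SciPy 1.17.1 and pandas 2.3.3 did the counting. Germline sequences and coordinates are GENCODE M21's, on GRCm38.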

Additional observations from a re-analysis of the deposited data

Results flagged for a closer look

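Over 68 sets of 8 hashtag values (34 labels, by cell and by clonotype), 11 sets had 1 hashtag far from the other 7, where chance gives about 1 in 20. The sets are not separate draws, since counts by cell and by clonotype share their cells and TRBV23 and TRBJ2-3 share a large clonotype of Hashtag7, so that rate is no yardstick for the 11. By cell, Hashtag7 stood apart with 5.18% TRBV23 (others 0.166% to 2.01%), 15.1% TRBJ2-3 (others 7.04% to 9.32%) and 3.37% TRBV16 (others 6.20% to 8.35%). Hashtag8 stood apart with 11.7% TRBV19 (others 5.50% to 7.58%), and Hashtag1 with 8.30% TRBV1 (others 4.66% to 6.06%) and 0.862% TRBV30 (others 0% to 0.333%). TRBV30 had only 23 cells in the library, and by clonotype Hashtag1 (0.358%) did not stand apart from Hashtag2 (0.359%).

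By clonotype, Hashtag7 had 4.28% TRBV16 (others 6.07% to 7.55%) and 9.62% TRBJ1-4 (others 5.62% to 7.16%). Hashtag8 had 10.6% TRBV19 (others 5.73% to 7.87%), Hashtag6 had 1.54% TRBV12-2 (others 3.22% to 4.33%) and Hashtag3 had 13.3% TRBJ1-1 (others 9.90% to 11.4%). TRBV16 and TRBV19 were apart in both counts. The 8 hashtags have no age or animal here, so these are values of samples and no comparison of groups.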

How the results depend on the processing

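The 10 TRBV labels called between CD4 and CD8 clonotypes stayed 8 (DESeq2) to 12 (cells) over the alternatives, and 9 to 10 when each hashtag was left out in turn; without the hashtag as a replicate block 11 were called. No label of the 11 called reversed, and 239 of 252 recomputed values kept direction and call. The 13 that lost the call were 11 of 22 values of the composite TRBV13-2 label and 2 of 23 of TRBV5 (DESeq2 and the sign-flip test). The number of TRBJ labels was 1, but 2 with the strict call, with the hashtag ratio of 5 and with the sign-flip test, which added a label higher in CD4, and 1 to 1 without each hashtag. The TRBJ2 cluster difference ran from -6.14 to -3.04 points without each hashtag, with exact p from 0.047 to 0.20 over all alternatives, and the CDR3 length difference from -0.177 to -0.0196 bases. Called V-J pairs numbered 26, but 51 by cell, 13 by distinct TRB sequence and 15 with an expected count of at least 20, and 20 to 28 without each hashtag. The largest share difference by cell was 0.90 points in TRBV23, but 0.54 points (TRBV15) without the largest clonotype and -0.96 points (TRBV5) against distinct TRB sequences; the cause was not tested. Counting TRBV12-2+TRBV13-2 with TRBV13-2 and keeping TRB sequences of 1 hashtag were chosen after seeing the data. The heart count, from 13 and 5 cells, is too small to show stability; at least 3 Trbv UMIs left 1 cell at 18 months and 0 at 2 months and gave no value.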
